A study of Mus musculus with 6 samples.

Results

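Among mouse genes of activator protein 1 (AP-1) and the immediate early response, Jun and the nuclear receptor gene Nr4a1 were higher in high-fat-fed liver lacking RECS1 in hepatocytes, while the other 8 genes described here, the Jun relatives Junb and Jund and the Fos family among them, did not pass the test. The account covers 10 genes: Jun, Junb, Jund, Fos, Fosb, Fosl2, Atf3, Egr1, Nr4a1 and Ier2. They were chosen by name, and every probe set that the platform annotation assigns to one of these symbols was taken, which gave 13 probe sets of 38195 tested. Jun, Jund and Fosl2 have 2 probe sets each and the other 7 genes have 1. All 10 genes had at least 1 probe set, and no filter on low values was applied.

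Livers of 6 C57BL/6 mice were profiled on Affymetrix expression arrays, 1 array per mouse. The 3 control mice carry floxed RECS1 (RECS1-flox), and the 3 mice called HKO (RECS1-HKO) are deficient for RECS1 in hepatocytes. RECS1 is an older name of Tmbim1. The labels name neither the Cre driver nor the sex of the mice. Mice of both genotypes started a high-fat diet at 8 weeks of age, ate it for 8 weeks, and were 16 weeks old at dissection. The samples are whole liver, so fewer cells of a type and less RNA per cell cannot be told apart.

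AP-1 is a family of dimers of basic leucine zipper proteins. Jun proteins pair with each other or with Fos and ATF proteins, and the dimers bind short DNA elements in many stress, growth and inflammatory genes. Immediate early genes such as Fos and Egr1 are transcribed within minutes of a stimulus without new protein synthesis, mostly through MAP kinases and factors already bound at their promoters. In liver they are known to respond to injury, partial hepatectomy, cytokines, feeding and the handling of tissue.

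Deposited values are log2 expression after RMA, a procedure that puts all arrays on a common distribution. Array medians lay between 3.923 and 3.953, no pair of arrays held identical values, and the median of the probe set means was 3.94. Tmbim1 itself had 7.62, 7.58 and 7.74 in the control mice and 7.19, 7.14 and 7.06 in the HKO mice, so the groups did not overlap (log2 fold change -0.52 ± 0.08, SE). It has 1 probe set, and the labels do not say whether that lies inside the deleted part. Hepatocyte markers were high on all arrays, with Alb at 13.57 in control and 13.63 in HKO liver. The 3′ minus 5′ difference of the control probe sets, a sign of RNA degradation, was 1.14 ± 0.08 (SD, n = 3) in control and 1.13 ± 0.07 in HKO liver for Actb, and 0.22 ± 0.08 and 0.14 ± 0.07 for Gapdh.

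Genotypes were compared by limma over all 38195 probe sets, and a probe set was called at a Benjamini-Hochberg adjusted p under 0.05. Of the 13 probe sets 3 rose in HKO liver, both of Jun and that of Nr4a1, and none fell, while 0.702% of all probe sets were called (0.367% higher, 0.335% lower). Before adjustment, 6 had p under 0.05 and were higher and 1 was lower, against 5.50% and 6.27% of all probe sets. The HKO values lay above all control values in 6 of the 13 and below them in 1, against 7.80% and 9.15% of all probe sets. The median log2 fold change of the 13 was 0.20, and that of all probe sets was 0.00. Because the genes were chosen with results of these data known, these counts are descriptions.

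**Figure D1:**
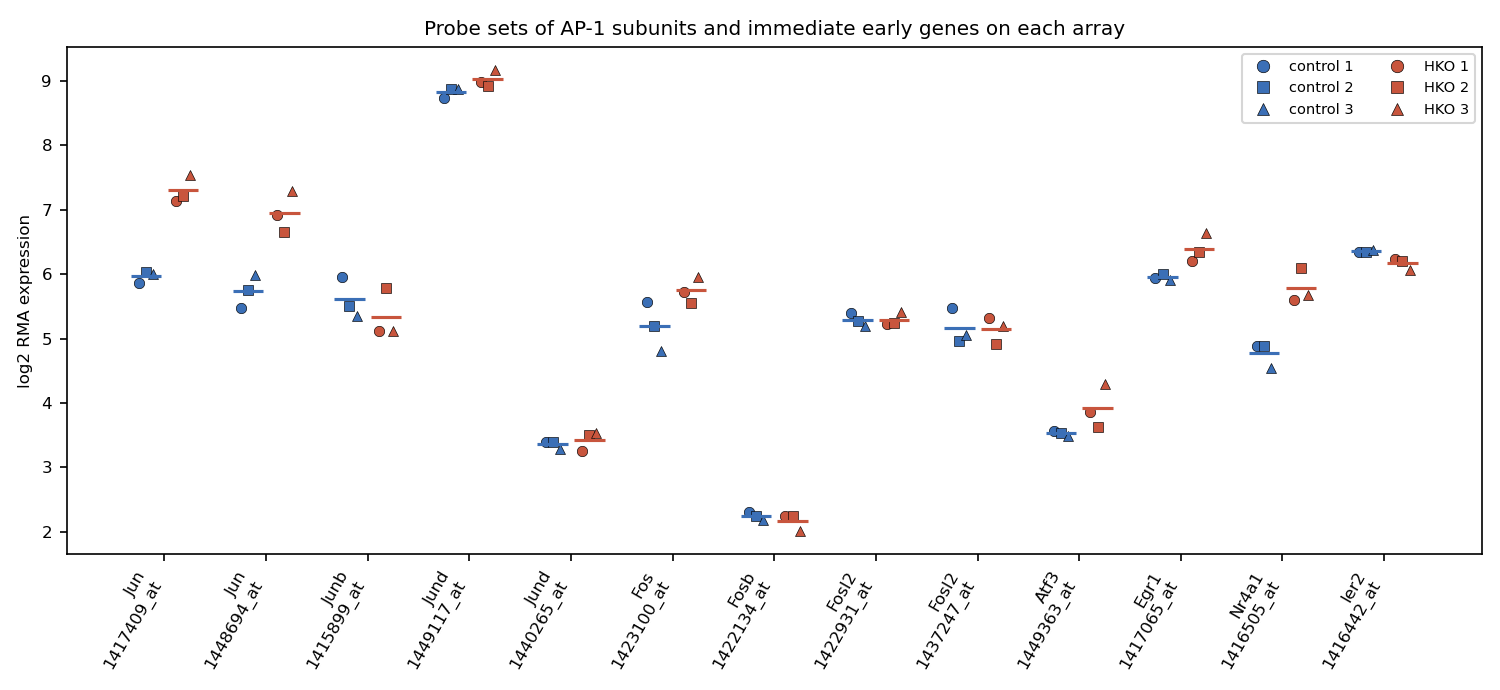
Log2 RMA expression (vertical axis) of each of the 13 probe sets (horizontal axis) on each of the 6 arrays, with controls in blue, HKO in red, the marker shape giving the replicate number and horizontal bars the means. The groups are clearly apart in both Jun probe sets and in Nr4a1, and overlap in Junb, Fos, Fosb, both Fosl2 probe sets and Jund 1440265_at. Heights of different probe sets cannot be compared.

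Jun encodes c-Jun, the AP-1 subunit that JNK kinases activate by phosphorylation. Its brighter probe set, 1417409_at, read 5.87, 6.03 and 6.00 in the control mice and 7.14, 7.21 and 7.54 in the HKO mice. The lowest HKO value lay 1.11 log2 units above the highest control value. Jun therefore rose 2.51-fold, a log2 fold change of 1.33 ± 0.11 (SE, 95% interval 1.07 to 1.59, limma adjusted p = 0.00134). The other probe set, 1448694_at, read 5.48, 5.76 and 5.98 against 6.92, 6.66 and 7.29. These groups were also apart, by 0.68, with a log2 fold change of 1.22 ± 0.17 (limma adjusted p = 0.023). HKO 3 had the highest Jun value in both probe sets, and control 1 the lowest.

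Junb and Jund encode the other Jun proteins, of which JunB often opposes c-Jun and JunD is the constitutive member. Junb read 5.96, 5.51 and 5.35 in control and 5.12, 5.78 and 5.12 in HKO liver. HKO 1 and HKO 3 lay below all controls, while HKO 2 lay between the controls, so the groups overlapped in part. The log2 fold change was -0.26 ± 0.21 (95% interval -0.74 to 0.21, limma adjusted p = 0.686). It stood at -0.087 without control 1 and at -0.486 without HKO 2, and did not pass in either fit. The brighter Jund probe set, 1449117_at, read 8.74, 8.87 and 8.88 against 8.99, 8.92 and 9.17. All 3 HKO values lay above the controls, by a gap of only 0.05, and the difference of 0.20 ± 0.09 did not pass (limma adjusted p = 0.441). The dimmer Jund probe set, 1440265_at, lay below the median probe set and stood at 0.06 ± 0.10 with overlapping groups.

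Fos encodes c-Fos, the inducible partner of c-Jun. It read 5.57, 5.20 and 4.81 in control and 5.73, 5.55 and 5.96 in HKO liver. The lowest HKO value lay just below the highest control value, that of control 1, so the groups overlapped. The log2 fold change was 0.56 ± 0.18 (95% interval 0.14 to 0.97), and its limma adjusted p of 0.285 did not pass. Control values were more spread than HKO values (SD 0.38 against 0.20, n = 3 each). The log2 fold change stood at 0.362 without control 3 and at 0.743 without control 1, and did not pass in either fit.

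Fosb and Fosl2, which encode FosB and Fra-2, showed small differences. Fosb lay between 2.18 and 2.31 in control and between 2.01 and 2.25 in HKO liver, far below the median probe set, at a log2 fold change of -0.08 ± 0.09. RMA shrinks differences at such dim levels. The Fosl2 probe set 1422931_at read 5.40, 5.27 and 5.20 against 5.22, 5.24 and 5.41, a log2 fold change of 0.00 ± 0.09 (95% interval -0.21 to 0.21). The other Fosl2 probe set, 1437247_at, stood at -0.02 ± 0.15 (-0.37 to 0.33). In all 3 probe sets the genotypes overlapped.

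Atf3, a stress-induced bZIP factor that dimerises with Jun proteins, read 3.57, 3.53 and 3.49 in control and 3.86, 3.62 and 4.29 in HKO liver. Every HKO value was above every control value, but by 0.04 at the closest. The difference of 0.39 ± 0.15 did not pass (limma adjusted p = 0.366), and without HKO 3 it was 0.206. Atf3 controls lay below the median probe set.

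**Figure D2:**
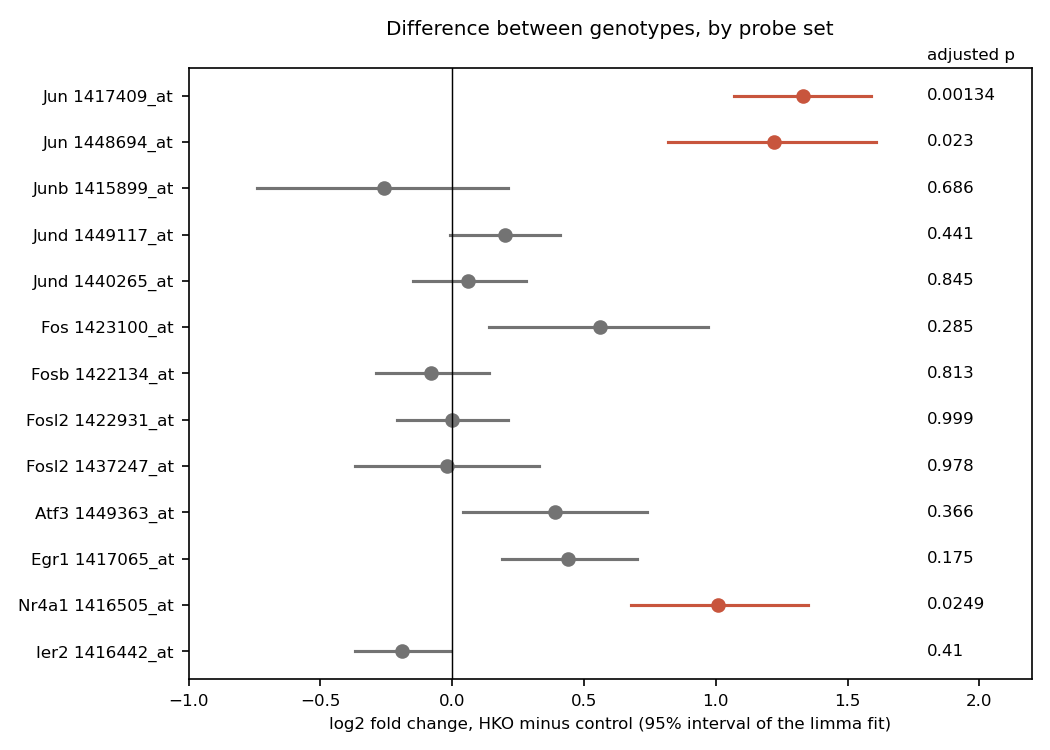
Log2 fold change of HKO minus control (horizontal axis) for each probe set, with the 95% interval of the limma fit as a line and the adjusted p at the right. Red marks the 3 probe sets past the threshold, the Jun pair at 1.33 and 1.22 and Nr4a1 at 1.01, and grey marks the 10 others.

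Egr1, a zinc finger factor induced through serum response elements, read 5.94, 6.00 and 5.91 in control and 6.20, 6.34 and 6.64 in HKO liver. The groups were apart by 0.20, with controls within a narrow range. The log2 fold change was 0.44 ± 0.11 (95% interval 0.19 to 0.70, limma adjusted p = 0.175), so Egr1 did not pass. It passed in none of the refits that were tried.

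Nr4a1, which encodes the orphan nuclear receptor Nur77, read 4.89, 4.89 and 4.55 in control and 5.60, 6.09 and 5.68 in HKO liver. The groups were separated by 0.70. Nr4a1 rose 2.02-fold, at a log2 fold change of 1.01 ± 0.15 (95% interval 0.68 to 1.35, limma adjusted p = 0.0249). HKO 2 was the highest here, unlike in Jun.

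Ier2, a nuclear immediate early protein, was the only gene of the 10 whose HKO values all lay below the controls. It read 6.35, 6.34 and 6.38 against 6.24, 6.20 and 6.06, a difference of -0.19 ± 0.08 that did not pass (limma adjusted p = 0.41).

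The calls of Jun 1448694_at and Nr4a1 were lost in most fits without 1 array, and that of Jun 1417409_at was kept in all of them. In the 6 fits without 1 array, Jun 1417409_at had adjusted p values between 0.00228 and 0.0114. Jun 1448694_at was not called without control 1 (0.076), control 2 (0.088), HKO 1 (0.114) or HKO 3 (0.054). Its log2 fold change lay between 1.051 and 1.363 over the 6 fits. Nr4a1 was called only without HKO 2 (0.0411). The other fits gave 0.0671 (without control 1), 0.0785 (control 2), 0.0879 (control 3), 0.066 (HKO 1) and 0.0689 (HKO 3). Its log2 fold change lay between 0.862 and 1.11 over the 6 fits.

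**Figure D3:**
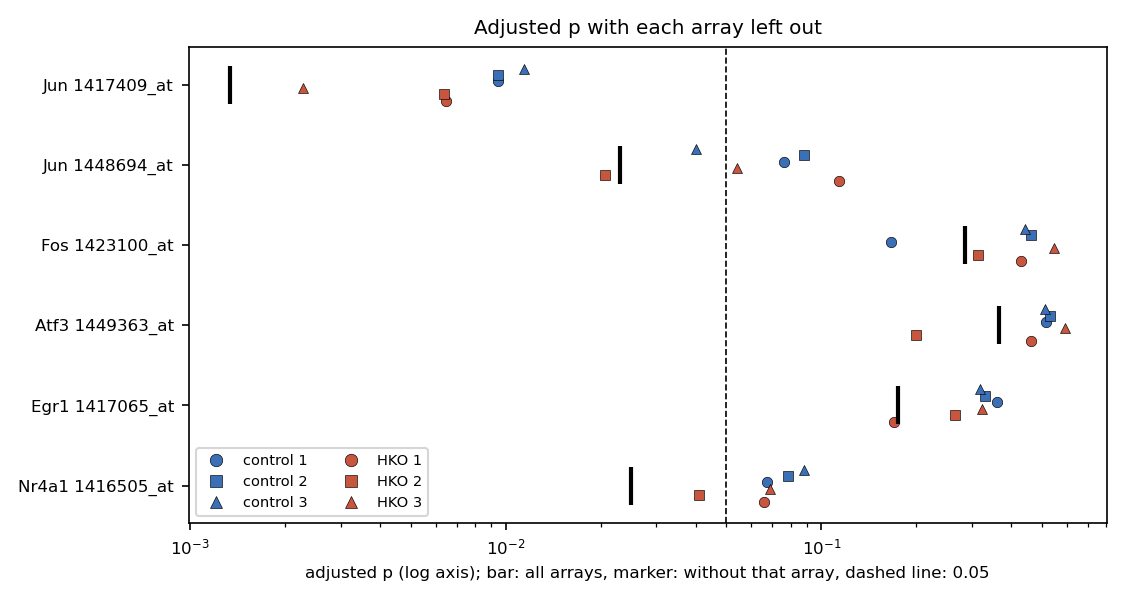
Limma adjusted p (horizontal log axis) of 6 probe sets with all arrays (black bar) and with each array left out (marker, named by the array left out), the dashed line being 0.05. All markers of Jun 1417409_at lie left of the line, 2 of Jun 1448694_at and 1 of Nr4a1 do, and none of Fos, Atf3 or Egr1.

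Within each genotype the probe sets did not all follow the same mouse. Control 1 was the highest control in 7 of the 13 probe sets and the lowest in 3, while control 3 was the lowest in 8. Among HKO mice, HKO 3 was the highest in 8 and the lowest in 3. Fos, Junb, Fosb, Atf3, Nr4a1 and both Fosl2 probe sets were highest in control 1 among the controls, whereas Jun and the brighter Jund probe set were lowest there.

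Jun was set against each of the 9 other genes on the same array, each gene by its brightest probe set. This is a description, since Jun was chosen with its rise known. Jun minus Junb was -0.09, 0.52 and 0.65 in control and 2.02, 1.43 and 2.42 in HKO liver. The mean changed by 1.60, and the groups were apart. Against Fos the change was 0.77, against Jund 1.13, against Egr1 0.89 and against Atf3 0.94, each with no overlap between genotypes. Jun minus Nr4a1 changed by 0.32 with overlapping groups.

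**Figure D4:**
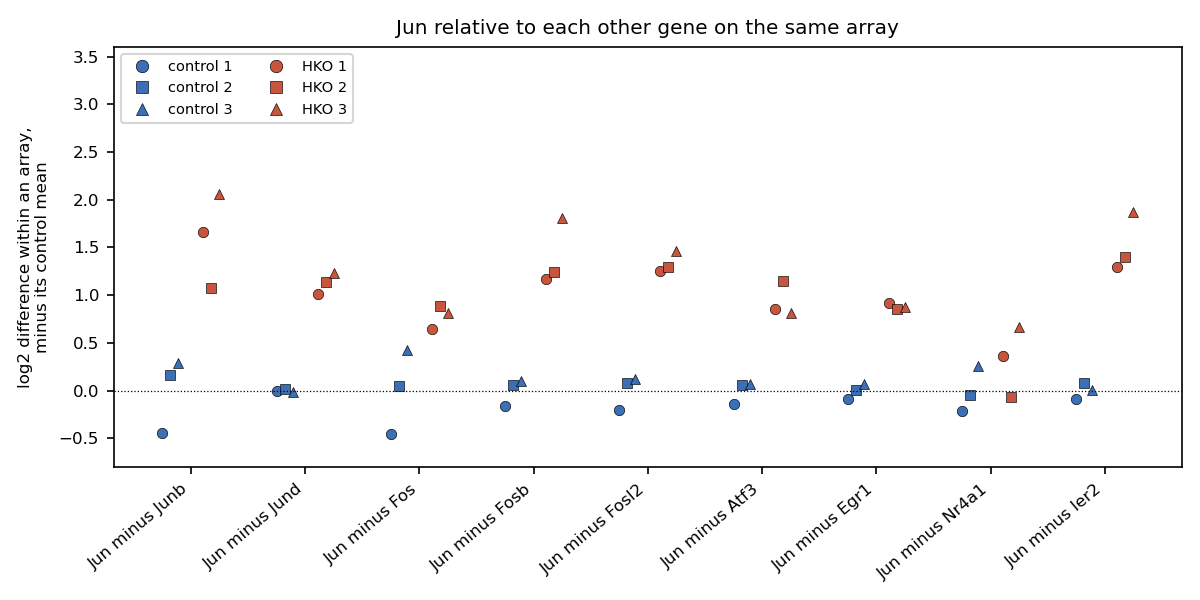
Log2 difference between Jun and each other gene on the same array (vertical axis), with the control mean of the pair subtracted, controls in blue and HKO in red, the marker shape giving the replicate number. HKO points lie above all control points in every pair except Jun minus Nr4a1, where HKO 2 lies among the controls.

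Promoter sequences are shown for the genes called, Jun and Nr4a1, beside those of Fos and Junb, which were not called, because these promoters are known for elements that bind ATF, CREB and AP-1 proteins. RefSeq promoters (GRCm38.p6) matched 8 of the 10 genes. Egr1 and Ier2 were not matched. Each sequence is the 250 bases before the annotated start, 5′ to 3′ on the gene's strand. They lie at chr4:95052223-95052472 (Jun, minus strand), chr15:101266596-101266845 (Nr4a1, plus), chr12:85473640-85473889 (Fos, plus) and chr8:84978749-84978998 (Junb, minus). Capitals mark matches to the motifs described after the sequences.
Jun: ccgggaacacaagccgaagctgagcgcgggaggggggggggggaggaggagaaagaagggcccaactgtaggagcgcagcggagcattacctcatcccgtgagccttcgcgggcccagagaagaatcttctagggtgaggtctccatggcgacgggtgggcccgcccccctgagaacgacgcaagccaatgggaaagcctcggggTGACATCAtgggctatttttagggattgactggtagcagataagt
Nr4a1: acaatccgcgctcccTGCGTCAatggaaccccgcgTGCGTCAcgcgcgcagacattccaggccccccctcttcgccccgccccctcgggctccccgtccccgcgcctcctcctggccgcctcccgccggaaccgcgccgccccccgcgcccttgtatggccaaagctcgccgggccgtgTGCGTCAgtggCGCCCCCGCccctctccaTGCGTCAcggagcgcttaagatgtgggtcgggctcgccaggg
Fos: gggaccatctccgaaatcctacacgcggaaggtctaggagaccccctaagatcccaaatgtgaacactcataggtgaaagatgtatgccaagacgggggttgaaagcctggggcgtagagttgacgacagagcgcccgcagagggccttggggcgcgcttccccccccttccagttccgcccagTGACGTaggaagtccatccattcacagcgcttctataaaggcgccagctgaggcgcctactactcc
Junb: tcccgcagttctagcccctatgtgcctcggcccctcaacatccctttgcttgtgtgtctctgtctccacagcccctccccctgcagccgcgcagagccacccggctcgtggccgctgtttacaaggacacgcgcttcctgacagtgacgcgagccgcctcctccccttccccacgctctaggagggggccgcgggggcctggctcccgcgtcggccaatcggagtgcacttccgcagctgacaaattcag

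The motifs were searched on both strands in the same 250 bases of all 32851 promoters of the table. TGACATCA is the AP-1-like element known from the Jun promoter, so its match in Jun was set in advance. It was found once in Jun, 45 to 38 bases before the start, and in 2.93% of all promoters. TGACGCA resembles the cyclic AMP response element and, read as its reverse complement TGCGTCA, also the AP-1 element TGANTCA. It was found 4 times in Nr4a1 (as TGCGTCA) and once in Fosb, against 1.75% of all promoters with a match. TGACGT, the core of the cyclic AMP response element, was found in Fos, 66 to 61 bases before the start, and in Atf3, against 6.47%. GCGNGGGCG, the site of Egr proteins, was found in Nr4a1, Fosb and Fosl2, against 4.70%. The classic AP-1 element TGANTCA (6.75% of promoters) and the CArG box of serum response factor (1.47%) had no exact match in the 8 windows. Junb and Jund matched none of the 6 motifs. Bases further upstream and the promoters of Egr1 and Ier2 were not searched, so an absent match covers these windows only. No matches of different motifs overlapped in these windows. A match describes letters in a window and is not evidence of binding.

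Genes around these factors were described from lists, with each gene represented by its brightest probe set over the 6 arrays, in a limma fit of 18029 genes. In that fit 1.01% of genes were called (0.560% higher, 0.449% lower), 13.0% had an unadjusted p under 0.05, and the median gene stood at 0.00. Of the 10 genes above, Jun and Nr4a1 were called in it.

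None of 12 measured AP-1 relatives and dimer partners was called. This list holds Fosl1, the Batf proteins, Jdp2, Atf2, Atf4, Atf7 and the Maf proteins. Their log2 fold changes lay between -0.13 and 0.14, with a median of 0.07, and none had an unadjusted p under 0.05. The lowest p values were those of the large Maf factor Maf (0.14 ± 0.10) and of Atf4, the factor of the integrated stress response (0.11 ± 0.08).

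Among 37 other immediate early genes 2 rose and none fell, with a median of 0.11 (limma, 7 higher and 3 lower at an unadjusted p under 0.05). Plk3, a stress-responsive polo-like kinase, read 5.84, 6.47 and 6.37 in control and 7.82, 7.62 and 7.31 in HKO liver. It rose by 1.36 ± 0.18 log2 units (limma adjusted p = 0.0166). Its call was lost without control 3 (0.0539), HKO 1 (0.0865) or HKO 2 (0.0549), and in the fit with a replicate block (0.056). Sik1, a salt-inducible kinase that acts on CREB coactivators, read 3.89, 4.24 and 3.89 against 4.59, 4.94 and 4.65, a rise of 0.72 ± 0.13 (limma adjusted p = 0.0481). Sik1 was called in 1 of the 6 fits without 1 array, that without control 2. In the fit of every probe set its adjusted p lay just above the threshold, at 0.05 as rounded, and its other, dimmer probe set stood at 0.32 ± 0.10 (0.238). The mean of all 37 genes lay between 5.60 and 5.74 on the control arrays and between 5.81 and 5.83 on the HKO arrays.

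None of 26 upstream kinases and transcription factors was called, and their median was 0.00 (1 higher and 2 lower at an unadjusted p under 0.05). The list covers the JNK, p38 and ERK cascades, serum response factor and its partners, CREB and the MEF2 proteins. Mrtfb, a coactivator of serum response factor, stood at -0.31 ± 0.09 (limma adjusted p = 0.194) and Map3k5, a kinase that activates JNK and p38, at -0.64 ± 0.18 (0.196). Mapk8 and Mapk9, which encode the JNK kinases of liver, stood at 0.12 and 0.02. Transcript levels do not report the activity of kinases.

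Of 13 negative regulators 1 fell and none rose, with a list median of -0.04 (limma, 2 higher and 1 lower at an unadjusted p under 0.05). The groups were apart in 4 of the 13, higher in HKO liver in 3 and lower in 1, against 8.58% and 10.1% of all genes. Det1, which encodes a partner of Cop1, stood at 0.34 ± 0.09 (limma adjusted p = 0.184), and Dusp10, a phosphatase of JNK and p38, at 0.32 ± 0.12 (0.31). Nab2, a corepressor of Egr1 that Egr1 itself induces, read 5.79, 5.74 and 5.68 in control and 4.79, 5.27 and 5.11 in HKO liver. It fell by 0.68 on the log2 scale (SE 0.12, limma adjusted p = 0.0481). In the fit of every probe set its adjusted p was 0.0514, and in the 6 fits without 1 array it was called only without HKO 2. With the replicate block it was 0.0926. Fbxw7, Itch and Cop1, which encode ubiquitin ligase components that degrade c-Jun, stood at 0.06, -0.20 and -0.04.

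Of 14 textbook AP-1 targets 4 rose and none fell, with a median of 0.21 (5 higher and 0 lower at an unadjusted p under 0.05). All 4 are also textbook targets of NF-kB, and the part of AP-1 or NF-kB in their rise was not tested. The list's other 10 genes, among them Ccnd1, Hmox1, Timp1 and Vim, lay between 0.00 and 0.40. Highest of these were Cd44 at 0.40 ± 0.20 (limma adjusted p = 0.455) and Plaur at 0.31 ± 0.07 (0.0984). The cytokine gene Il6 read 1.69, 1.20 and 1.40 in control and 3.74, 3.13 and 3.43 in HKO liver, dim on all arrays. It rose by 2.00 ± 0.17 (limma adjusted p = 0.00165). The chemokine gene Ccl2 rose by 1.61 ± 0.17 (0.00412). Tnf read 4.10, 3.77 and 4.25 against 5.35, 5.37 and 5.35, a rise of 1.32 ± 0.12 (0.00206). The prostaglandin synthase gene Ptgs2 rose by 1.55 ± 0.08 (6.17e-05) in the probe set that stands for it, while its other probe set stood at 0.08 (0.776 in the fit of every probe set). With the brightest probe set in controls in its place, Ptgs2 was not called (0.078, adjusted p = 0.732). The called probe set read 1.19, 1.28 and 1.38 in control and 2.78, 2.93 and 2.81 in HKO liver, at percentile 10.9 of brightness among all genes. With genes below the median brightness left out, 1 of the 4, Tnf, was called, since Il6, Ccl2 and Ptgs2 were not tested there.

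**Figure D5:**
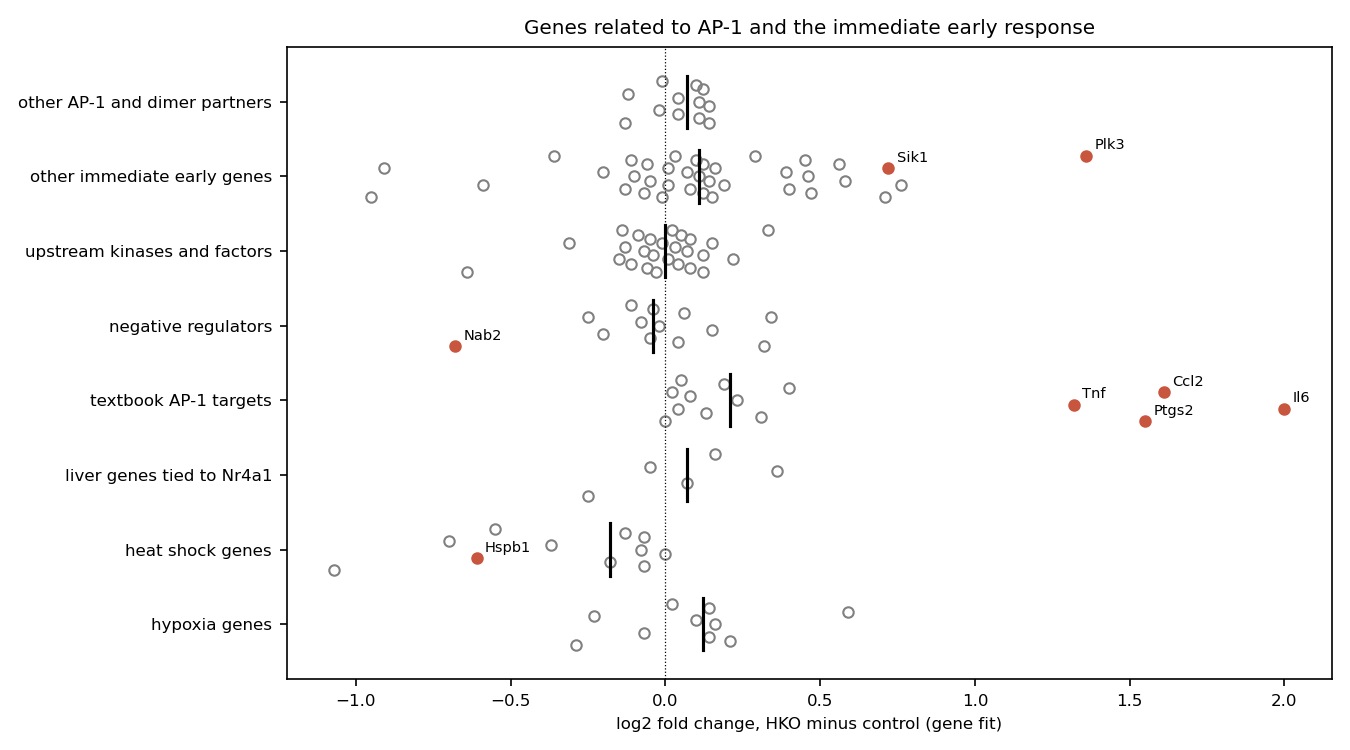
Log2 fold change of HKO minus control (horizontal axis) for the measured genes of 8 lists, 1 circle per gene, with called genes filled and named and the list median as a black bar. Vertical position within a list has no meaning. Called genes are Plk3, Sik1, Nab2, Il6, Ccl2, Tnf, Ptgs2 and Hspb1, and the AP-1 relatives lie within -0.13 and 0.14.

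Among 5 gluconeogenic and glycolytic genes that have been tied to Nr4a1 in liver none was called, and 1 had an unadjusted p under 0.05. G6pc, the catalytic subunit of glucose-6-phosphatase, stood at 0.36 ± 0.09 (limma adjusted p = 0.135) with groups apart, and Fbp1, a fructose bisphosphatase, at 0.16 ± 0.07 (0.413).

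Lists that respond to heat, low oxygen and handling of tissue were set beside these genes. Of 11 heat shock genes 1 fell and none rose, and the median was -0.18 (5 lower and 0 higher at an unadjusted p under 0.05). The small heat shock gene Hspb1 fell by 0.61 (SE 0.09, limma adjusted p = 0.0289). Both its probe sets were called in the fit of every probe set, at -0.61 (limma adjusted p = 0.0348) and -0.73 (0.023). In the gene fit Hspb1 was called in none of the 6 fits without 1 array, where adjusted p lay between 0.0526 and 0.114, nor with the replicate block (0.0569). Its log2 fold change stayed between -0.67 and -0.524 in those 6 fits. The groups were apart in 7 of the 11, all lower in HKO liver, where 10.1% of all genes were apart in that direction and 8.58% in the other. None of 10 hypoxia genes was called, with a median of 0.12 and 1 at an unadjusted p under 0.05. Pdk1, a pyruvate dehydrogenase kinase, stood at 0.59 ± 0.15 (0.149), and Slc2a1, a glucose transporter, at -0.29 ± 0.13 (0.388). The part of tissue handling in the Jun and Nr4a1 results was not tested.

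Markers of other liver cells were measured beside Jun and Nr4a1, which many cell types express. No marker of the 8 lists was called, among 9 of hepatocytes, 12 of macrophages and Kupffer cells, 8 of neutrophils, 9 of lymphocytes, 10 of endothelial cells, 10 of stellate cells and fibroblasts, 5 of cholangiocytes and 4 of erythrocytes. Of all genes 1.01% were called and 13.0% had an unadjusted p under 0.05, so the absence of calls in these short lists does not show unchanged cell content. At an unadjusted p under 0.05 in the limma fit stood 1 marker each of hepatocytes (Hnf4a, -0.28), macrophages (Ccr2, -0.36) and cholangiocytes (Sox9, -0.66). The summed macrophage signal (log2 of the sum of linear values) lay between 11.53 and 12.08 in control and between 11.78 and 11.97 in HKO liver. That of neutrophils lay between 7.33 and 8.18 against 7.15 and 7.46, and that of endothelial cells between 10.08 and 10.29 against 10.04 and 10.26. The summed cholangiocyte signal was apart, between 5.82 and 5.94 in control and between 5.51 and 5.66 in HKO liver, with all 5 markers below the median gene. Taken singly, Krt19, Epcam and Cftr overlapped between genotypes. The part of the marker lists in the Jun and Nr4a1 results was not tested.

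The genes whose centred values over the 6 arrays were nearest to those of Jun 1417409_at were Casp8 (root mean square distance 0.110 log2 units), Bhlhb9 (0.116), Nnt (0.132), Il12a (0.136) and Rab30 (0.151). Casp8, an initiator caspase, read 7.96, 7.96 and 8.02 in control and 9.22, 9.26 and 9.31 in HKO liver. Nnt, a mitochondrial transhydrogenase known to differ between C57BL/6 substrains, read 7.71, 7.54 and 7.77 against 8.85, 9.15 and 9.31, a difference of 1.43 ± 0.13. The labels give the strain as C57BL/6 with no substrain, and a part of substrain in the Jun result was not tested.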

How the data were processed

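Liver RNA of 3 control and 3 HKO mice was measured on 1 Affymetrix array each, from 400 ng of total RNA per the labels' protocols. The authors deposited log2 values. RMA and limma are named in the submitters' processing notes, and their versions and settings are not stated in the sources used here. RMA hides shifts shared by all transcripts and shrinks differences of dim probe sets. Of 38208 probe sets 13 Affymetrix controls were left out. Platform annotation gave 34325 probe sets 1 symbol, 62 several and 3808 none, and 34131 matched the reference gene table by identifier, which changed 0 symbols.

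The comparison used lmFit and eBayes of limma 3.58.1 under R 4.3.3 (genotype as the only term, two-sided, Benjamini-Hochberg over 38195 probe sets or, for lists, 18029 genes, threshold 0.05). The steps were tested on simulated data. The members and lists were chosen with earlier results of these data known. Named were every probe set of the 10 genes, Tmbim1, the called genes of each list of related, heat shock or hypoxia genes or else the 2 with the lowest p, and the 5 genes nearest to Jun. Genes named to explain a list's content (Fosl1 and its neighbours, Mapk8, Mapk9, Fbxw7, Itch, Cop1, Ccnd1, Hmox1, Timp1, Vim, Alb) were added. Marker lists were described by counts, and Hnf4a, Ccr2, Sox9, Det1, Dusp10, Cd44 and Plaur were named after their values were seen. Alternatives were quantile normalization, median centring, leaving out dimmer features, array weights, a variance trend with robust eBayes, a block for the replicate number, other choices of a gene's probe set and leaving out each array. The 3 mice of a genotype are biological samples per the labels, and their number limits the precision.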

Additional observations from a re-analysis of the deposited data

How the results depend on the processing

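Over the alternatives that kept all arrays, the same 3 probe sets of Jun and Nr4a1 were called: quantile normalization, median centring, leaving out dimmer probe sets, array weights, a variance trend with robust eBayes and the replicate block. Taken gene by gene, Jun and Nr4a1 were called under each choice of probe set. Leaving out 1 array gave between 1 and 3 called probe sets of the 13, between 87 and 197 of all probe sets (268 with all arrays), between 78 and 161 of all genes (182) and between 4 and 7 of the related genes (8). Only values near 0 changed sign. Fosl2 1422931_at was 0.004 after quantile normalization and 0.003 with array weights, and lay between -0.06 and 0.054 without 1 array. Fosl2 1437247_at was 0.009 with array weights and lay between -0.12 and 0.139 without 1 array, and Fosb between -0.115 and 0.004. The cause was not tested.

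Numbers 1, 2 and 3 are not stated to pair mice across genotypes. Deviations of same-numbered arrays correlated at -0.076, 0.06 and 0.101, so the numbers were not used as pairs. With the replicate block 221 probe sets, 125 genes and 8 related genes were called, and of the genes named Plk3 (adjusted p = 0.056), Hspb1 (0.0569) and Nab2 (0.0926) were no longer called. Sik1 was also lost under quantile normalization (0.0511) and array weights (0.0568), and Nab2 under quantile normalization (0.054). With 3 arrays per genotype, an absent call does not show that a gene was unchanged.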

Other observations

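Several immediate early genes outside the 10 had separated groups without passing the test, and they did not share a direction. These genes were picked after their values were seen. Of the 37 in the list, HKO values lay above all controls in 7 and below all controls in 2, against 8.58% and 10.1% of all genes. The 7 include Plk3 and Sik1, which were called. Sgk1, a kinase induced by glucocorticoids and insulin, read 6.98, 7.02 and 7.42 in control and 7.80, 8.11 and 7.78 in HKO liver (0.76 ± 0.14, limma adjusted p = 0.0578). Zfp36, which encodes the mRNA-destabilising protein tristetraprolin, stood at 0.47 ± 0.12 (0.153). Pim1, a kinase gene that STAT factors induce, read 6.26, 6.26 and 6.82 against 5.02, 5.70 and 5.75, a difference of -0.95 ± 0.22 (0.115). Socs3, the feedback inhibitor of STAT3 signalling, stood at -0.59 ± 0.16 (0.164).

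Dusp1, the phosphatase that inactivates JNK and p38, varied widely within both genotypes, at 9.22, 9.39 and 8.45 in control and 9.94, 10.25 and 8.99 in HKO liver. Its difference of 0.71 ± 0.34 did not pass (limma adjusted p = 0.436). In Dusp1 the lowest mouse of each genotype was control 3 and HKO 3, whereas HKO 3 had the highest Jun value.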
